A study of Mus musculus with 5 samples.

Results

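The canonical histone genes were taken as all gene names on the array that begin with Hist1h, Hist2h, Hist3h or Hist4h, the older names of the genes for core and linker histones. They made up 56 of 37074 gene names and 68 of 56605 probes: 6 H1, 18 H2A, 14 H2B, 9 H3 and 9 H4 genes. The choice rests on the name alone and used no measured value. All 56 were found as older names of genes in a RefSeq table of GRCm38.p6, which calls Hist1h1b H1f5 and Hist2h3b H3c13, for example. By the positions on the array 42 lie on chromosome 13, 10 on chromosome 3, 3 on chromosome 11 and 1 on chromosome 6. A gene with several probes took the probe with the highest mean signal, and 12 genes had 2 probes.

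H2A, H2B, H3 and H4 are the core histones around which DNA is wrapped in the nucleosome, and H1 is the linker histone that binds where the DNA enters and leaves it. The canonical genes lie in clusters, are transcribed mainly in S phase and give messenger RNAs that end in a stem-loop without a poly(A) tail. Replacement histones such as H2A.Z and H3.3 are made throughout the cell cycle from ordinary polyadenylated messenger RNAs. RNA for these arrays was amplified and labelled with Cy3 by a kit that primes on poly(A) tails, so the signal of a canonical histone gene need not scale with all of its messenger RNA.

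The study compared tumor endothelial cells (TECs) with liver sinusoidal endothelial cells (LSECs) in models of hepatocellular carcinoma, with 1 array for each of 5 conditions. The LSEC array and the TEC arrays carry the strain label C57BL/6, and the array of cultured Hepa 1-6 cells carries the label C57L. TECs were CD31-positive cells taken with magnetic beads from tumors grown in mouse liver from HAK-1B, Hepa1-6 or KYN-2 cells, of which the HAK-1B and KYN-2 lines are human and Hepa1-6 is from mouse. The methods describe female mice aged 6 weeks, C57BL/6 or nude (BALB/c nu/nu), and do not tie the arrays to single animals. The paragraph of the methods on the arrays names Huh-7 where the labels name HAK-1B. Each array stood for its condition alone, so no test between single conditions could be made, and cells of another type and RNA per cell cannot be told apart in such bulk samples.

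Before the values are read, the quality of the arrays bears on them. The TEC arrays shared a slide and the LSEC array and the array of cultured cells had a slide each, which means that slide and condition cannot be told apart. All 12 pan-endothelial markers were well above background on the LSEC array and on each TEC array, and 3 of 12 on the array of cultured cells. Their median log2 ratio to LSEC was -2.47 in HAK-1B TECs, -2.49 in Hepa1-6 TECs and -1.60 in KYN-2 TECs. Markers of other cell types differed between the arrays as well. In the order HAK-1B, Hepa1-6, KYN-2, the neutrophil list of 10 genes had median log2 ratios of 4.92, 4.07 and 0.88, the fibroblast and stellate cell list of 10 genes had 0.64, 2.26 and 1.26, and the hepatocyte list of 11 genes had -2.65, 0.51 and -1.60. The macrophage list of 10 genes had a highest median of 0.14, in HAK-1B TECs, and a lowest of -1.20, in Hepa1-6 TECs. The T and NK cell list of 10 genes had 0.15, 0.70 and 0.94, the B cell list of 7 genes 0.44, -1.31 and 0.33, and the erythroid list of 8 genes -2.95, -1.87 and -0.79. The part of these cells in the histone values was not tested. The Hepa1-6 TEC array stood apart in that 79.1% of 33003 genes were well above background on it, against 47.2% to 58.6% on the other arrays.

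Many histone probes are not private to a gene, since the members of a class share most of their coding sequence. Each probe is 60 bases long, and 16 of the 56 chosen probes listed transcripts of 2 or more RefSeq genes. The stretch of 20 or more bases found in the most chosen probes was the run CTGCTGCCCAAGAAGACCGAGA near the end of the H2A coding sequence, which 6 chosen probes and no other probe on the array held in full. 3 probes with that run, the probe of Hist2h2aa2 and the probe of H2afj, a replacement H2A gene, are given because the bases they share bear on how far the H2A genes were measured apart. Capitals mark the run of 22 bases in the top 3, the 17 bases of it that Hist2h2aa2 held, and the 29 bases that H2afj shared with Hist1h2ah.
Hist1h2aa (chr13:24026659-24026718, mm9, plus strand): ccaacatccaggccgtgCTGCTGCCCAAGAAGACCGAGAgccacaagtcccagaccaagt
Hist1h2ah (chr13:22127035-22127094, mm9, minus strand): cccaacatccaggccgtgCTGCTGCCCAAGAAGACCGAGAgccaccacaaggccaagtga
Hist2h2ac (chr3:96024378-96024437, mm9, minus strand): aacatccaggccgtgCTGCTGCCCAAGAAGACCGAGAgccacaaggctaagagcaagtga
Hist2h2aa2 (chr3:96043781-96043840, mm9, minus strand): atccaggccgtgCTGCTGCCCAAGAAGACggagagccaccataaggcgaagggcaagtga
H2afj (chr6:136757181-136757240, mm9, plus strand): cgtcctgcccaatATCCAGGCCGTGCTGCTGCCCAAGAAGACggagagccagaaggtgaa

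Linking all chosen probes that shared a run of 20 bases or more gave 3 groups with 17 genes in all, and the other 39 genes stood alone. The largest group held 10 H2A genes. A group of 5 (Hist1h2bf, Hist1h3a, Hist1h3i, Hist2h2bb and Hist3h2ba) was linked through the 3′ stem-loop, and Hist1h4d and Hist1h4k formed the third. The 56 genes therefore give at most 42 separate readings at this limit, and counts of genes below are not counts of independent measurements.

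The 3′ stem-loop itself is shown because it is what marks a canonical histone messenger RNA. The 16 letters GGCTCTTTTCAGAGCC stood in full in 4 of the 68 probes, and in 5 more they were cut off by the end of the probe, with 9 letters or more remaining. On the whole array 5 probes held them. Hist1h3g and Hist1h4m carried forms that differed from these letters at 2 positions, and in both the 6 bases of the stem still paired. Capitals mark the stem-loop, with the bases beside it, and the positions are those of the whole probe.
Hist1h2bf (chr13:23665629-23665688, mm9, minus strand): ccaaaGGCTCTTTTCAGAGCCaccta
Hist1h3i (chr13:21874784-21874843, mm9, minus strand): caaaaGGCTCTTTTCAGAGCCccctc
Hist1h3g (chr13:23627719-23627778, mm9, plus strand): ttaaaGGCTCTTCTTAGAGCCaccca
Hist1h4m (chr13:21903960-21904019, mm9, plus strand): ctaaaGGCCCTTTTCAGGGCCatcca

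To describe how the family differed between tumor and sinusoidal endothelium, each TEC array was set against the LSEC array. The median log2 ratio of the 56 genes to LSEC was 0.50 in HAK-1B TECs, 1.15 in Hepa1-6 TECs and 1.25 in KYN-2 TECs, against -0.04, -0.07 and -0.04 over all genes, and 1.33 in cultured Hepa1-6 cells against 0.12. Log2 values here are background-subtracted signals quantile normalized over the 5 arrays. Of the genes well above background on at least 1 array of a comparison, 6 of 50 were at least 2-fold higher in HAK-1B TECs (17.5% of all genes), 30 of 53 in Hepa1-6 TECs (25.1% of all genes), 36 of 50 in KYN-2 TECs (16.9% of all genes) and 31 of 51 in cultured cells (28.2% of all genes). The HAK-1B count depended on the scaling, with 13 genes after scaling to the 75th percentile, which moved the median of all genes there by -0.36, and 2 with normexp background correction. These counts use the measured signals also where LSECs were not well above background. Set against the dimmest LSEC signal well above background in place of its own, Hist1h2bq in HAK-1B TECs and Hist1h2bp in Hepa1-6 TECs would not count as 2-fold higher. At least 2-fold lower were 1, 3, 0 and 4 of these genes, against 18.0%, 22.0%, 18.3% and 31.0% of all genes. Of the 4 in cultured cells, Hist1h2ac and Hist1h3a would not count if set against the dimmest signal well above background there. Of 54 genes measured on any of the 4 endothelial arrays, 35 lay above LSEC in all 3 TECs (27.0% of all genes) and 1, Hist1h4h, lay below it in all 3 (28.4% of all genes). Without the HAK-1B array the first count was 44, without the Hepa1-6 array 38 and without the KYN-2 array 35. By the measured signals 5 genes were 2-fold higher in all 3 TECs (5.54% of all genes), Hist1h2ab, Hist1h2ao, Hist1h2bq, Hist1h3i and Hist2h3b, of which Hist1h2bq has no bound in HAK-1B TECs, and none was 2-fold lower in all 3 (8.26% of all genes). The count of 5 was not stable, with 24 without the HAK-1B array, 12 after scaling to the 75th percentile and 2 with normexp. The 3 comparisons share the LSEC array, so these counts are not separate observations.

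**Figure D1:**
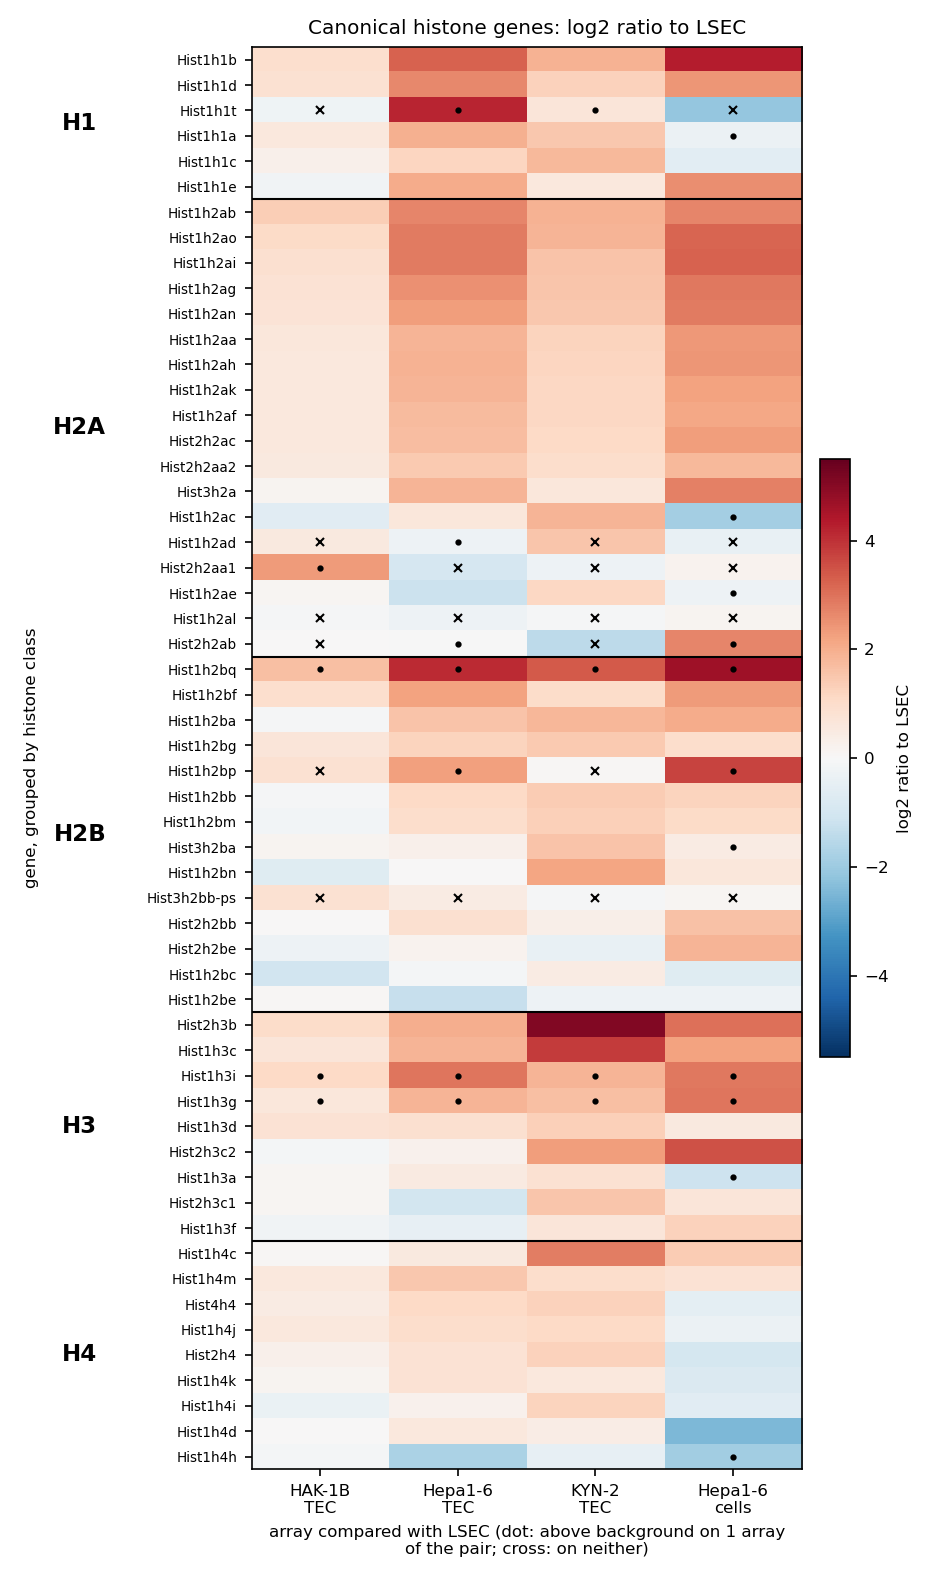
Log2 ratio to LSEC of each of the 56 canonical histone genes (rows, grouped by histone class and ordered within a class by the mean over the 3 TECs) on the 3 TEC arrays and the array of cultured Hepa1-6 cells (columns). Dots mark pairs in which the gene was well above background on 1 of the 2 arrays and crosses those in which it was on neither. All 6 H1 genes are red in Hepa1-6 TECs and most H2A genes are red there and in cultured cells, whereas 8 of 9 H4 genes, all but Hist1h4h, are red in Hepa1-6 and KYN-2 TECs and 7 of 9 are blue in cultured cells.

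Detection was high. Of the 56 genes 40 were well above background on all 5 arrays, 14 on 1 to 4 arrays, and 2, Hist1h2al and Hist3h2bb-ps, on none. By array the count was 46 on LSEC (56.0% of all genes), 50 on HAK-1B TEC (58.6%), 53 on Hepa1-6 TEC (79.1%), 50 on KYN-2 TEC (56.4%) and 45 on cultured cells (47.2%). No histone probe was saturated.

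The study's rule of size calls a gene higher from a ratio of 1.5 and a Z-score of 2 upwards and lower from a ratio of 0.66 and a Z-score of -2 downwards, and the members that passed depended on its settings. The rule asked for 7.25-fold in HAK-1B TECs, 11.4-fold in Hepa1-6 TECs, 6.79-fold in KYN-2 TECs and 39.8-fold in cultured cells. No member passed in HAK-1B TECs or in cultured cells, where 3.13% and 2.57% of all genes were called higher. In Hepa1-6 TECs 2 members were called higher, Hist1h1t and Hist1h2bq (4.48% of all genes). In KYN-2 TECs 4 were called higher, Hist1h2bq, Hist1h3c, Hist2h3b and Hist1h4c (3.67% of all genes). No member was called lower in any comparison, where the rule called 3.96% of all genes in HAK-1B TECs, 2.04% in Hepa1-6 TECs, 2.90% in KYN-2 TECs and 4.85% in cultured cells. None was called in all 3 TECs. For Hist1h2bq the LSEC signal was not well above background, and its bounds of 5.22-fold in Hepa1-6 TECs and 3.14-fold in KYN-2 TECs lie under the fold the rule asked for, so both calls rest on a background signal. With normexp 8 members were called higher in Hepa1-6 TECs, with the flag of presence required on both arrays 5, and with no Z-score 37, while in cultured cells the count was 1, 1 and 35.

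limma was fitted to the 3 TECs as a group against the lone LSEC array, which was assumed to vary like the TECs. It called none of 42113 probes at an adjusted p-value below 0.05, with 3583 probes, 8.51%, at an unadjusted p-value below 0.05. Of 54 members tested 2 were below 0.05 unadjusted, and without the HAK-1B, Hepa1-6 or KYN-2 array the number was 5, 1 and 0. They were Hist1h2ab, with a log2 ratio of 1.98 (SE 0.70, adjusted p-value in limma 0.573), and Hist1h2bq (adjusted p-value in limma 0.577), for which the LSEC signal was not well above background and no ratio is given. The spread in this fit is that between tumors of 3 lines.

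The linker histones were higher in Hepa1-6 TECs in all 6 genes. Their median log2 ratio to LSEC was 0.43 in HAK-1B TECs, 2.33 in Hepa1-6 TECs, 1.37 in KYN-2 TECs and 1.06 in cultured cells. In the same order 0, 6, 4 and 3 of them were at least 2-fold higher (17.5%, 25.1%, 16.9% and 28.2% of all genes). Hist1h1b, the H1.5 gene, had log2 signals of 8.12 in LSECs, 9.06 in HAK-1B TECs, 11.35 in Hepa1-6 TECs, 10.04 in KYN-2 TECs and 12.43 in cultured cells. All 3 TEC arrays lay above LSEC and below the cultured cells, and the mean log2 ratio of the TECs was 2.03 ± 1.15 (SD, n = 3 tumor lines). Hist1h1d, the H1.3 gene, ran 6.85, 7.69, 9.47, 8.12 and 9.28 in the same order, with Hepa1-6 TECs just above the cultured cells. Hist1h1e, the H1.4 gene, ran 10.64, 10.43, 12.67, 11.24 and 13.21, so that HAK-1B TECs were just below LSECs. Hist1h1a, the H1.1 gene, ran 5.97, 6.55, 7.92, 7.43 and 5.67, and in cultured cells it was not well above background. Hist1h1c, the H1.2 gene, ran 10.73, 11.01, 11.93, 12.52 and 10.16 by its brighter probe, with KYN-2 TECs highest and cultured cells lowest.

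Hist1h1t, the testis-specific linker histone of spermatocytes, stood out on the Hepa1-6 TEC array. Its log2 signal was 4.43 in LSECs, 4.17 in HAK-1B TECs, 8.62 in Hepa1-6 TECs, 5.10 in KYN-2 TECs and 2.29 in cultured Hepa1-6 cells, and it was well above background in Hepa1-6 and KYN-2 TECs. The LSEC side was replaced by the dimmest signal still well above background there, or by the gene's own signal where brighter. On that basis Hist1h1t was at least 15.3-fold higher in Hepa1-6 TECs and at least 1.34-fold higher in KYN-2 TECs. All "at least" values below were taken in this way. On the array of cultured cells of the line from which those tumors grew, it was not well above background. The longest run of bases its probe shared with the chosen probe of another canonical histone gene was 12.

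The H2A genes were lower in LSECs than in each TEC in 12 of 18 genes (27.0% of all genes). Their median log2 ratio to LSEC was 0.58 in HAK-1B TECs, 1.80 in Hepa1-6 TECs, 1.16 in KYN-2 TECs and 2.34 in cultured cells. At least 2-fold higher were 3 of 15, 12 of 16, 12 of 14 and 13 of 15 measured genes (17.5%, 25.1%, 16.9% and 28.2% of all genes). The HAK-1B count was near that share. The 6 genes whose probes held the shared run of 22 bases gave log2 ratios of 0.57 to 0.80 in HAK-1B TECs, 1.72 to 2.51 in Hepa1-6 TECs, 1.10 to 1.51 in KYN-2 TECs and 2.12 to 2.90 in cultured cells. Each of them was lowest in LSECs and highest in cultured cells. Hist1h2aa, a testis-type H2A gene, was among them, with log2 signals of 14.83, 15.45, 16.70, 16.07 and 17.22 in the order LSEC, HAK-1B, Hepa1-6, KYN-2 and cultured cells. H2afj ran in the same order, with 15.19, 15.72, 16.68, 16.21 and 17.24. These signals cannot be assigned to a gene, since the probes share long runs of bases. Each of the 6 shared a run of 34 to 45 bases with the chosen probe of another member, and H2afj shared 29 with Hist1h2ah.

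Hist1h2ab has a probe near the end of its messenger RNA that shares at most 15 bases with the chosen probe of another member. It had log2 signals of 10.96 in LSECs, 12.31 in HAK-1B TECs, 13.63 in Hepa1-6 TECs, 12.88 in KYN-2 TECs and 13.63 in cultured cells. It was at least 2-fold higher in each TEC, with a mean log2 ratio of 1.98 ± 0.66 (SD, n = 3 tumor lines). Of the linked group with the highest ratios, Hist1h2ai ran 6.33, 7.23, 9.19, 7.91 and 9.59, and Hist1h2ao ran 13.75, 14.81, 16.60, 15.62 and 16.96, with LSECs lowest in both. Hist1h2ac and Hist1h2ae went another way. Hist1h2ac ran 5.98, 5.38, 6.61, 7.86 and 4.12, so that HAK-1B TECs and cultured cells lay below LSECs. Hist1h2ae ran 5.15, 5.26, 3.96, 6.31 and 4.86, with a log2 ratio of -1.19 in Hepa1-6 TECs and 1.16 in KYN-2 TECs. By its chosen probe Hist2h2aa1 was well above background in HAK-1B TECs alone, at least 2.52-fold higher than in LSECs. That probe started 1117 bases beyond the length of the RefSeq gene and listed no RefSeq transcript. The probe of Hist2h2aa2 listed transcripts of both genes and ran 14.89, 15.41, 16.35, 15.87 and 16.70, well above background on every array. Hist2h2ab was 2.26 to 3.73 on the endothelial arrays and 6.41 in cultured cells, at least 3.32-fold higher than in LSECs.

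H2B genes were less uniform. The class median of the log2 ratio to LSEC was 0.04 in HAK-1B TECs, 0.93 in Hepa1-6 TECs, 1.18 in KYN-2 TECs and 1.13 in cultured cells. At least 2-fold higher were 1 of 12, 6 of 13, 8 of 12 and 8 of 13 measured genes (17.5%, 25.1%, 16.9% and 28.2% of all genes). The HAK-1B count lay below that share. Hist1h2bq, which LSECs did not show above background, had log2 signals of 2.96 in LSECs, 4.61 in HAK-1B TECs, 7.06 in Hepa1-6 TECs, 6.33 in KYN-2 TECs and 7.64 in cultured cells. The gene was at least 5.22-fold higher in Hepa1-6 TECs, at least 3.14-fold in KYN-2 TECs and at least 7.78-fold in cultured cells. Its probe listed transcripts of 2 RefSeq genes. Hist1h2bf ran 7.67, 8.59, 9.86, 8.69 and 10.01, with LSECs lowest. Hist1h2ba, the testis-type H2B gene, ran 9.20, 9.12, 10.79, 11.04 and 11.25, with HAK-1B TECs at the level of LSECs and the other arrays at least 2-fold above.

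Among the H2B genes with the lowest ratios were Hist1h2bc and Hist2h2be, which are known to give polyadenylated messenger RNAs as well. Their RefSeq genes are 8282 and 2667 bases long. That of Hist1h2be, the H2B gene with the lowest mean ratio of the TECs to LSEC, is 37455 bases long. Long RefSeq genes stood at higher ratios as well. That of Hist1h2bq, the H2B gene with the highest mean ratio, has 3788 bases, and that of Hist1h2bp has 14079. The part of transcript type in these ratios was not tested. Hist1h2bc ran 12.22, 11.15, 12.11, 12.65 and 11.54, 2-fold lower in HAK-1B TECs than in LSECs. Hist2h2be ran 8.56, 8.26, 8.77, 8.14 and 10.44, with the cultured cells above the 4 endothelial arrays. Its other probe ran 8.27, 8.03, 8.75, 8.03 and 10.18, with the cultured cells again above the rest. Hist1h2be ran 7.27 in LSECs, 7.34 in HAK-1B TECs and 6.02 in Hepa1-6 TECs, the lowest, with the other arrays in between. With Hist1h1c and Hist4h4, Hist1h2bc and Hist2h2be form the list of 4 histones with known polyadenylated transcripts, whose median log2 ratio to LSEC was -0.01, 0.65, 0.85 and -0.56 in HAK-1B TECs, Hepa1-6 TECs, KYN-2 TECs and cultured cells.

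H3 genes were highest against LSECs in KYN-2 TECs and in cultured cells. Their median log2 ratio to LSEC was 0.64 in HAK-1B TECs, 0.87 in Hepa1-6 TECs, 1.64 in KYN-2 TECs and 2.20 in cultured cells. In the same order 2, 4, 7 and 6 of 9 genes were at least 2-fold higher (17.5%, 25.1%, 16.9% and 28.2% of all genes). The HAK-1B count was near that share. With normexp the KYN-2 median was 1.09 and that of cultured cells 1.48. Hist2h3b had log2 signals of 8.30 in LSECs, 9.33 in HAK-1B TECs, 10.30 in Hepa1-6 TECs, 13.38 in KYN-2 TECs and 11.32 in cultured cells. Hist1h3c ran 9.97, 10.63, 11.83, 13.80 and 12.18. Both were lowest in LSECs and highest in KYN-2 TECs, 33.9-fold and 14.2-fold above LSECs. Hist1h3i, whose probe holds the stem-loop, ran 4.71, 5.79, 7.66, 6.56 and 7.63. LSECs were not well above background for it, and it was at least 2.11-fold higher in HAK-1B TECs, at least 7.71-fold in Hepa1-6 TECs and at least 3.60-fold in KYN-2 TECs. Hist1h3f ran 7.03, 6.83, 6.57, 7.71 and 8.28, and Hist2h3c1 ran 6.68, 6.77, 5.69, 8.19 and 7.32, with Hepa1-6 TECs lowest in both.

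H4 was the only class with a median below LSECs in cultured cells. Its median log2 ratio to LSEC was 0.17 in HAK-1B TECs, 0.79 in Hepa1-6 TECs, 1.09 in KYN-2 TECs and -0.60 in cultured cells. At least 2-fold higher were 0, 2, 5 and 1 of 9 genes in the same order (17.5%, 25.1%, 16.9% and 28.2% of all genes). Only in KYN-2 TECs did the count exceed that share. In cultured cells 2 of 9 were at least 2-fold lower than in LSECs, against 31.0% of all genes. The signal was lowest in cultured cells in 7 of 9 genes, and the share of all genes lowest there was not counted. Hist1h4d had log2 signals of 14.45, 14.46, 15.02 and 14.86 on the LSEC, HAK-1B, Hepa1-6 and KYN-2 arrays and 11.96 in cultured cells. Its probe is spotted 10 times on the array, and the SD of the log2 signal between those spots was 0.03 to 0.06, which covers the measurement on an array and not the spread between animals. Its other probe, near the start of the coding sequence, ran 12.13, 12.59, 13.05, 13.16 and 9.93, again lowest in cultured cells. Hist4h4 ran 10.65, 11.12, 11.73, 11.91 and 10.11, and Hist2h4 ran 13.12, 13.40, 13.91, 14.39 and 12.18. Hist1h4m ran 6.41, 6.99, 7.89, 7.39 and 7.20, with LSECs lowest. Hist1h4h ran 7.74, 7.64, 6.00, 7.28 and 5.84, with LSECs highest, and it was the H4 gene lower than LSECs in all 3 TECs.

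**Figure D2:**
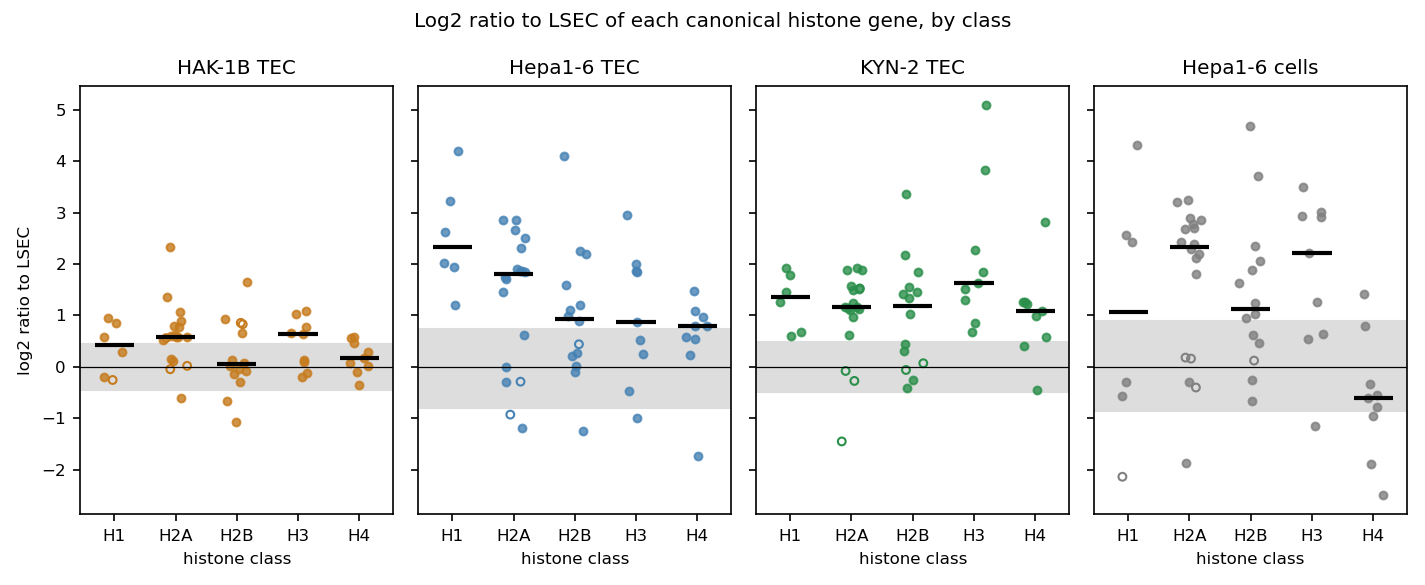
Log2 ratio to LSEC (vertical axis) of each canonical histone gene by class (horizontal axis) in the 3 TECs and in cultured Hepa1-6 cells. Bars mark class medians, open circles genes well above background on neither array, and the grey band the middle of all genes (25th to 75th percentile). The H1 median reaches 2.33 in Hepa1-6 TECs, and the H4 median is -0.60 in cultured cells.

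The array of KYN-2 TECs held a set of histone genes that the other TECs did not share at that level. Chosen after their values were seen, 9 of 50 members well above background there were at least 2-fold higher in KYN-2 TECs than in LSECs and in both other TECs (4.07% of all genes). They were Hist1h2ac, Hist1h2ae, Hist1h2bn, Hist1h3c, Hist1h4c, Hist2h3b, Hist2h3c1, Hist2h3c2 and Hist3h2ba, and they included 4 of the 9 H3 genes. By the same measure 10 of 53 were highest in Hepa1-6 TECs (14.3% of all genes), 3 of them H2A and 4 of them H1 genes, and 1 of 50 in HAK-1B TECs (5.05% of all genes). The KYN-2 count was 6 to 8 with other normalizations, background corrections or the deposited table, an alternative added after the data were seen. The excess of Hist2h3b in KYN-2 TECs over the next highest TEC was 8.45-fold, that of Hist1h4c 4.83-fold, that of Hist1h2bn 4.44-fold and that of Hist1h3c 3.94-fold. The probes of Hist2h3b and Hist1h4c each listed transcripts of 3 RefSeq genes, and those of Hist1h2ac, Hist2h3c1 and Hist2h3c2 started beyond the length of the RefSeq gene.

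Probes of Hist1h4c and Hist2h3b from this set are given, each beside a probe of the same class. Only the H4 probes are near-identical, and they gave different values. The H3 probes cover mostly different stretches of the coding sequence. The Hist1h4c probe and the other probe of Hist1h4k cover the same stretch of 20 codons and differ at 8 of 60 bases, shown in capitals, with no change in the encoded peptide. The Hist1h4c probe listed transcripts of 3 RefSeq genes and the Hist1h4k probe of 2, and which transcript each bound was not tested. Hist1h4c had log2 signals of 8.43 in LSECs, 8.50 in HAK-1B TECs, 8.98 in Hepa1-6 TECs, 11.25 in KYN-2 TECs and 9.84 in cultured cells. The Hist1h4k probe ran 10.42, 10.75, 11.21, 11.42 and 9.40. The KYN-2 array was thus far above the other endothelial arrays by the Hist1h4c letters and close to Hepa1-6 TECs by the Hist1h4k letters, and the cultured cells were above LSECs by the former and below them by the latter. The Hist2h3b probe is shown beside that of Hist1h3d, which overlaps its end, runs on through the H3 coding sequence and ran 13.99, 14.76, 14.86, 15.28 and 14.53.
Hist1h4c (chr13:23790223-23790282, mm9, minus strand): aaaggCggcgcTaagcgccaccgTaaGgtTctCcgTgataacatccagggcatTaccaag
Hist1h4k, other probe (chr13:21842279-21842338, mm9, minus strand): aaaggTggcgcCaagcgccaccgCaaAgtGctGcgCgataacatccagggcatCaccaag
Hist2h3b (chr3:96072881-96072940, mm9, plus strand): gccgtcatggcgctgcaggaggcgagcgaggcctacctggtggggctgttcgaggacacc
Hist1h3d (chr13:23667979-23668038, mm9, plus strand): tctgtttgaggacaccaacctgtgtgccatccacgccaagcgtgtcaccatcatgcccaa

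The GC content of the chosen probes ran from 35.0% to 70.0%, and the probe of Hist2h3b was the one at 70.0%. Over the 56 genes, whose probes share sequence and arrays, Pearson's r between probe GC content and the log2 ratio to LSEC was 0.41 in KYN-2 TECs, 0.21 in Hepa1-6 TECs, 0.01 in HAK-1B TECs and 0.04 in cultured cells. The part of base composition in the KYN-2 values was not tested.

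**Figure D3:**
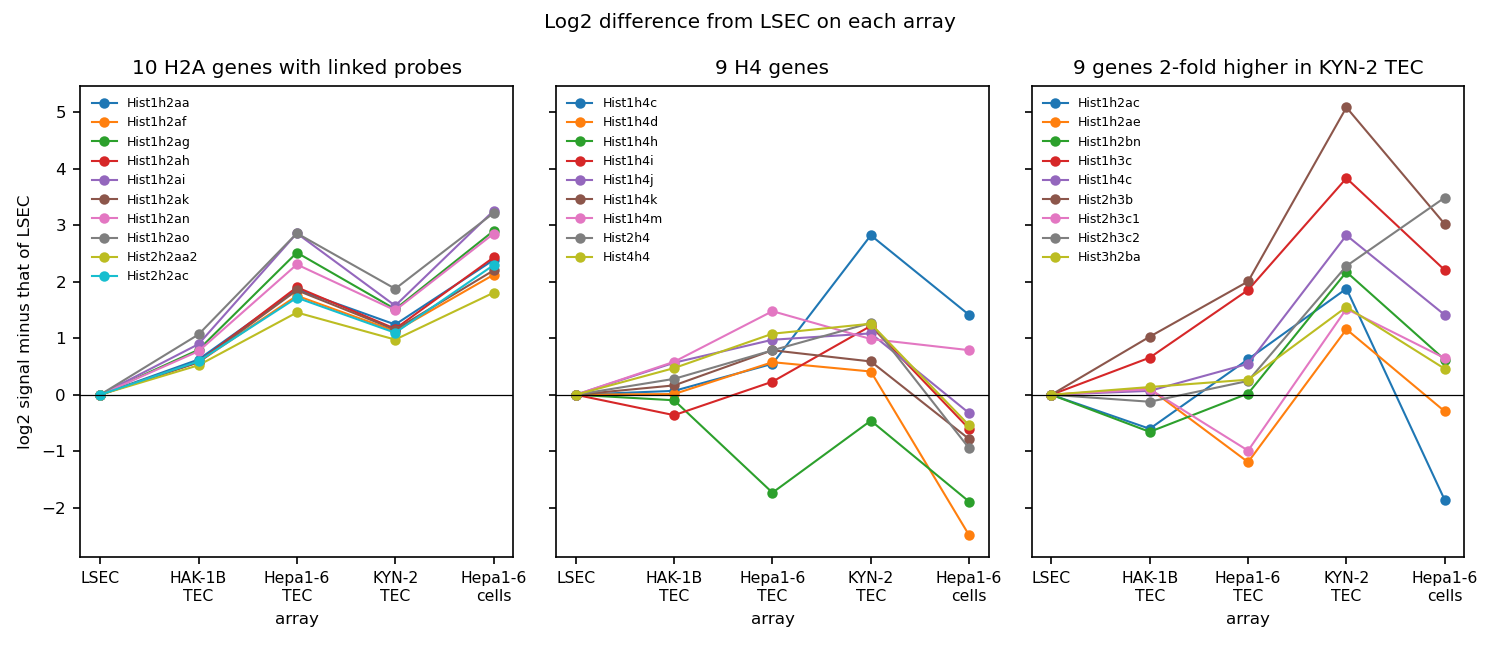
Log2 signal minus that of LSEC (vertical axis) on each array (horizontal axis) for 10 H2A genes whose probes share a run of 20 bases or more, the 9 H4 genes, and the 9 genes at least 2-fold higher in KYN-2 TECs than in LSECs and both other TECs. The H2A lines run together and peak in cultured cells, the H4 lines fall below 0 there in 7 of 9 genes, and in the third panel Hist2h3b reaches 5.08 in KYN-2 TECs.

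In some genes the probes parted by position. In 12 of the 68 probes the start given in the array's transcript lay beyond the length of the RefSeq gene, and 6 genes (Hist1h1c, Hist1h1d, Hist1h2ai, Hist2h2bb, Hist3h2a and Hist3h2ba) had a probe inside and a probe beyond it. This split was made after the values were seen. Hist1h1d, Hist1h2ai and Hist3h2ba give no firm ratio by the probe beyond the gene, since neither LSECs nor cultured cells cleared the background by it. In the other 3 genes, Hist1h1c, Hist2h2bb and Hist3h2a, the ratio to LSEC was higher by the inside probe in each TEC and in cultured cells. For Hist1h1c the log2 ratios of KYN-2 TECs were close, with 1.86 inside and 1.79 beyond. With background signals included, the inside ratio was higher in 5 of 6 genes on each TEC array. Hist3h2ba went the other way. Its log2 ratios inside and beyond were 0.14 and 0.32 for HAK-1B, 0.27 and 0.37 for Hepa1-6, and 1.55 and 1.70 for KYN-2.

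In Hist2h2bb the probes ran in opposite directions. The probe with the stem-loop had log2 signals of 9.38 in LSECs, 9.40 in HAK-1B TECs, 10.27 in Hepa1-6 TECs, 9.68 in KYN-2 TECs and 11.01 in cultured cells. The probe downstream had 10.94, 9.26, 7.62, 9.02 and 3.80, where the last was not well above background. LSECs were thus lowest by the former probe and highest by the latter. Hist3h2a gave the same contrast, with 12.57, 12.72, 14.43, 13.20 and 15.35 inside the gene and 11.78, 9.94, 10.13, 10.63 and 10.68 beyond it. In Hist1h1c the probe inside ran 8.28, 8.96, 10.11, 10.14 and 9.74 and the probe beyond ran 10.73, 11.01, 11.93, 12.52 and 10.16, so that LSECs lay below every TEC by both and the probes parted in cultured cells. Over all 56 chosen probes, the 50 inside the gene had median log2 ratios of 0.54, 1.47, 1.19 and 1.71 in HAK-1B TECs, Hepa1-6 TECs, KYN-2 TECs and cultured cells, and the 6 beyond it 0.19, 0.44, 1.66 and 0.41.

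Stretches of 3 downstream or 3′-most probes are shown because they hold AATAAA, the poly(A) signal, in capitals, where the stem-loop probes hold the stem-loop. AATAAA was not confined to such probes. The chosen probe of Hist1h2ag, which starts inside the RefSeq gene and holds the shared H2A run, holds it too and is not shown. The positions are those of the whole probe.
Hist2h2bb, downstream probe (chr3:96082754-96082813, mm9, plus strand): gttgtcagtttgAATAAAgacagagaaact
Hist2h2be (chr3:96027578-96027637, mm9, plus strand): gatcgAATAAAtccattcactgc
Hist3h2ba, downstream probe (chr11:58762964-58763023, mm9, plus strand): cataatggtattAATAAAtttggttca

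**Figure D4:**
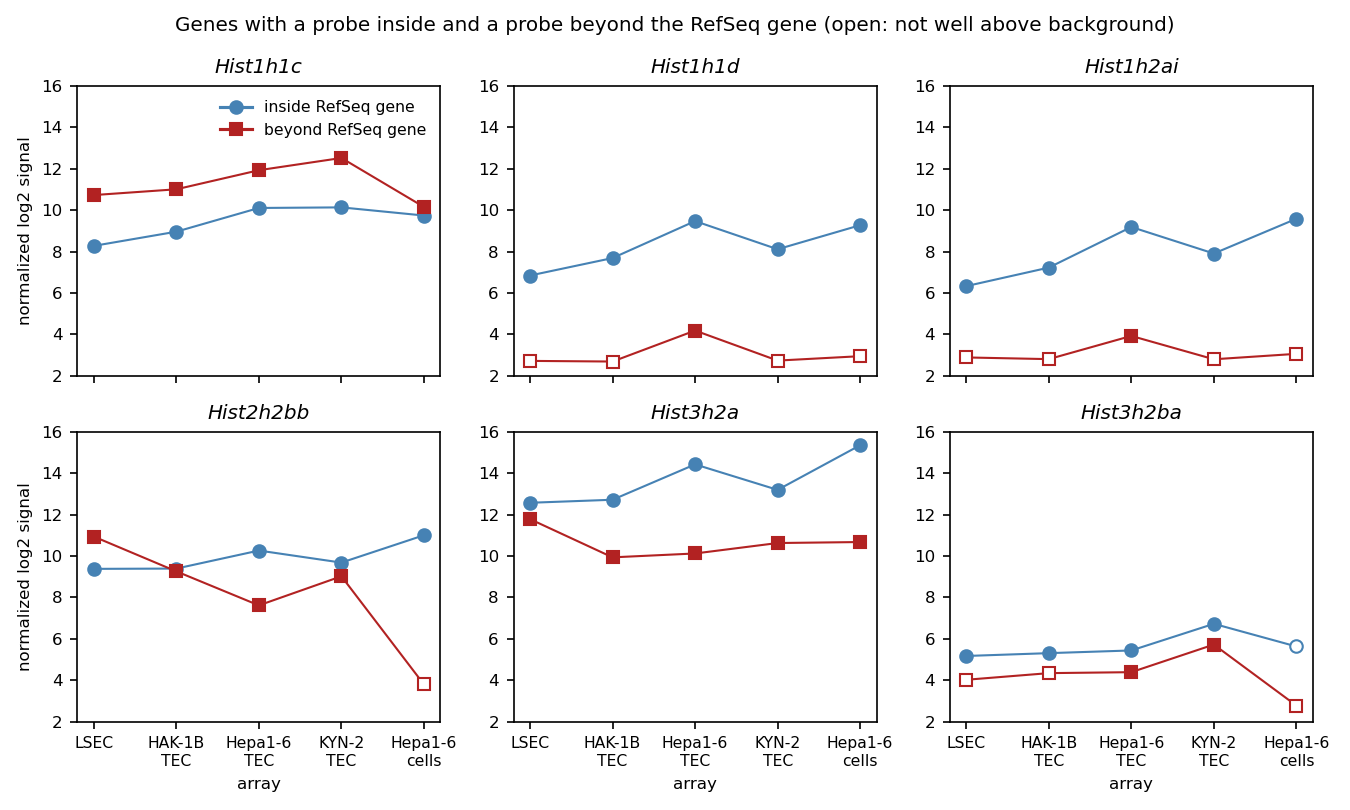
Normalized log2 signal (vertical axis) on each array (horizontal axis) of the 6 genes with a probe inside (blue circles) and a probe beyond (red squares) the RefSeq gene, with open symbols where the probe was not well above background. In Hist2h2bb and Hist3h2a the blue line is lowest, and the red line highest, in LSECs.

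Cultured Hepa1-6 cells set the level of a dividing line of tumor cells beside the TECs. Of 45 members well above background in cultured cells, 6 were at least 2-fold higher there than in each of the 3 TECs (21.3% of all genes). They were Hist1h1b, Hist1h2bp, Hist1h3g, Hist2h2ab, Hist2h2be and Hist2h3c2. Of 49 members well above background in all 3 TECs, 5 were at least 2-fold lower in cultured cells than in each TEC (19.0% of all genes), namely Hist1h2ac, Hist1h3a, Hist1h4d, Hist2h4 and Hist4h4, of which 3 are H4 genes. Both shares were below those of all genes. Hist1h2ac and Hist1h3a were not well above background in cultured cells, where the dimmest such signal was 5.96. Set against that limit, neither would count as 2-fold lower than HAK-1B TECs, which had 5.38 and 5.98. limma called 1882 of 42136 probes, 4.47%, between the 3 TECs and cultured cells at an adjusted p-value below 0.05. No member was among them, and 5 of 54 were below 0.05 unadjusted against 21.5% of all probes. Without the HAK-1B or the KYN-2 array 0 probes and without the Hepa1-6 array 4600 probes were called, and 3, 3 and 17 members were then below 0.05 unadjusted. The lowest adjusted p-value of a member in limma was 0.0727 for Hist1h4d, with a log2 ratio of 2.82 (SE 0.52). With normexp 1 member, the same gene, was called, with an adjusted p-value in limma of 0.0328.

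Promoters are shown for what the genes share before their start. RefSeq (GRCm38.p6) gave a promoter of 300 bases, 250 before and 50 after the start, for 49 of the 56 genes, and 4 short motifs were searched on both strands. CCAAT stood in 43 of 49 promoters (87.8%), against 37.9% of 27025 promoters, and TATAAA in 29 (59.2%) against 14.2%. AAACACA, the letters of the H1 box, stood in 5 of 6 H1 promoters and in 4 of the other 43, against 7.14% of all. ATTTGCAT, the octamer known from H2B promoters, stood in 5 of 11 H2B and 7 of 17 H2A promoters and in none of the H1, H3 or H4 promoters, against 1.75% of all. CCAAT stood in all 6 H1, 17 H2A, 11 H2B and 7 H3 promoters and in 2 of 8 H4 promoters. A match is a string of letters, and no binding was measured. The 150 bases before the start of Hist1h1b and Hist1h2bf are given, with the searched motifs in capitals on either strand.
Hist1h1b (chr13:21780626-21780775, GRCm38.p6, minus strand): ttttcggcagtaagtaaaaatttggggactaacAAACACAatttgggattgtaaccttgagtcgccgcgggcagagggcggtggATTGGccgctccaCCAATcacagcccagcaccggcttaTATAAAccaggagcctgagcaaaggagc
Hist1h2bf (chr13:23574208-23574357, GRCm38.p6, minus strand): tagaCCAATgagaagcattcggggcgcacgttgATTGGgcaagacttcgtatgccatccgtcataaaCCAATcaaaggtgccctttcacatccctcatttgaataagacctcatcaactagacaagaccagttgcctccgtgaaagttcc

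Other genes of S phase were also higher in the TECs, but not in the order of every histone class. Of 25 S-phase genes 22 lay above LSEC in all 3 TECs (27.0% of all genes) and 9 were at least 2-fold higher in all 3 (5.54% of all genes). Their median log2 ratio to LSEC was 0.71 in HAK-1B TECs, 1.80 in Hepa1-6 TECs, 1.10 in KYN-2 TECs and 3.17 in cultured cells. Ccna2, the cyclin of S phase, had log2 signals of 8.02, 9.70, 11.23, 10.36 and 12.03 in the order LSEC, HAK-1B, Hepa1-6, KYN-2 and cultured cells. Ccne1, the cyclin that starts S phase, ran 7.69, 9.41, 11.35, 9.48 and 12.79, and Rrm2, a subunit of ribonucleotide reductase, ran 9.11, 10.73, 11.68, 11.06 and 13.27. In all 3 LSECs were lowest and cultured cells highest, as in the linked H2A probes. The H4 median was -0.60 in cultured cells, where the S-phase median was highest, and the median of all histone genes was higher in KYN-2 TECs (1.25) than in Hepa1-6 TECs (1.15), whereas that of the S-phase genes was lower.

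Genes that serve histone messenger RNAs and proteins were mixed. Of 19 genes for transcription and 3′ end processing of histone messenger RNA, 8 lay above LSEC in all 3 TECs and 7 below. Over all genes the shares were 27.0% above and 28.4% below. Slbp, which binds the stem-loop, was lower in every TEC, with log2 signals of 10.97 in LSECs, 9.91 in HAK-1B TECs, 9.10 in Hepa1-6 TECs, 8.92 in KYN-2 TECs and 9.24 in cultured cells. Lsm11, a part of the U7 particle that cuts histone messenger RNA, ran 6.06, 7.46, 7.89, 7.63 and 9.46, and Cstf2, a cleavage factor, ran 6.44, 8.21, 8.66, 8.37 and 10.26, with LSECs lowest in both. Of 22 chaperones 10 lay above LSEC in all 3 TECs (27.0% of all genes) and 6 below (28.4% of all genes). Chaf1a, a subunit of the chromatin assembly factor that works at replication forks, ran 7.19, 8.50, 10.11, 8.84 and 12.12. The paralogs of the chaperone Asf1 went opposite ways, with Asf1b at 9.10, 10.54, 11.15, 10.75 and 12.44 and Asf1a at 6.75, 6.11, 3.75, 4.95 and 6.13.

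The replacement histones differed in direction among themselves. Of 11 genes 4 lay above LSEC in all 3 TECs (27.0% of all genes) and 2 below (28.4% of all genes). The median log2 ratio was 0.06 in HAK-1B TECs, -0.24 in Hepa1-6 TECs and 0.26 in KYN-2 TECs. Scaled to the 75th percentile in place of quantile normalization, the Hepa1-6 median was 0.04. H2afy, the macroH2A gene, ran 11.71, 13.20, 13.31, 12.85 and 12.46, at least 2-fold higher in each TEC. H1f0, the H1 gene of cells that do not divide, ran 7.53, 6.36, 6.13, 7.17 and 7.17, with LSECs highest.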

How the data were processed

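The authors amplified and labelled the RNA with Cy3, hybridised each sample to a mouse array of 60-base probes and extracted the spots with Agilent Feature Extraction (9.5.1.1 in the submitters' processing notes). The deposited values are linear intensities by spot, with the background already taken off and no normalization between arrays, beside flags of 0 or 1. A table of intensity values normalized by the authors was used as an alternative. The array names its positions in mm9.

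Spots of a probe were averaged, and the 5 arrays were quantile normalized on the log2 scale. Of the probes of a gene, the one with the highest mean log2 signal was taken. Genes were called 2-fold higher or lower if well above background on at least 1 array of the comparison, and by the rule of size after lincRNA probes were left out. limma 3.58.1 (in R 4.3.3) compared the TECs as a group with LSEC, or with cultured cells, with Benjamini-Hochberg adjustment over all probes and 2 residual degrees of freedom. The rule of size and limma were run on simulated data, with the same change in all 3 TECs and only in brighter probes. That does not cover dim genes or differences between the tumor lines. The members, gene lists and tests were chosen with earlier results of these data known. Named were the 3 highest and 2 lowest members of each class by mean ratio of the TECs among those above background on 3 or more arrays, all 6 H1 genes, testis-type and polyadenylated histones, and the 3 genes with the largest mean ratio of each of 4 pathway lists. Others were chosen after their values were seen. Python 3.11.15, pandas 2.3.3, numpy 2.4.6 and matplotlib 3.10.9 were used. Precision is limited by having 1 array for each condition. Alternatives were scaling to the 75th percentile, normexp (offset 50), the deposited table, the mean of a gene's probes, normalization by pair, other filters and leaving out a TEC array.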

Additional observations from a re-analysis of the deposited data

Results flagged for a closer look

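Hist1h2ae, a canonical H2A gene, went opposite ways in tumors of different lines. Its log2 ratio to LSEC was 1.16 in KYN-2 TECs and -1.19 in Hepa1-6 TECs, each past 2-fold, and 0.11 in HAK-1B TECs. Its signals were dim. LSECs had 5.15, where the dimmest signal well above background was 4.68. Hepa1-6 TECs had 3.96, where that limit was 2.83, and on every other array it was 4.28 or more. The probe listed no RefSeq transcript. Hist1h2ae was picked out because the tumor lines differed in direction under the same comparison. The difference was not tested, since there was 1 array for each line. No group held enough arrays for a search for outlying samples.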

How the results depend on the processing

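Of the values of the main comparisons under alternatives 166 stayed within the limits set, 26 moved and 1 passed a threshold. The limit was a factor of 1.5 for a count and the SD between the 3 TECs for a median. A change of direction was looked for only in medians at least 2-fold from LSEC, and none was found. The median ratios of the family to LSEC all stayed positive, with the lowest, 0.16, in HAK-1B TECs. Alternatives for genes high on a lone TEC array or above LSEC in all TECs were chosen after seeing the data. Where the 75th percentile took the place of quantile normalization, the median of all genes against LSEC shifted by -0.36 in HAK-1B TECs, 0.36 in Hepa1-6 TECs, -0.10 in KYN-2 TECs and 0.72 in cultured cells, 13 histone genes in place of 6 were 2-fold higher and 0 in place of 1 lower in HAK-1B TECs, 1 in place of 3 was lower in Hepa1-6 TECs, and 12 in place of 5 were 2-fold higher in all 3 TECs. In HAK-1B TECs 100% of the genes past 2-fold were then higher, against 85.7%, and 66.7% with normexp. With normexp 2 were 2-fold higher in HAK-1B TECs, 1 was lower in Hepa1-6 TECs and 2 in place of 4 in cultured cells, 2 were 2-fold higher in all 3 TECs, 0 in place of 1 were highest in HAK-1B TECs, 8 in place of 2 in Hepa1-6 TECs and 1 in place of 0 in cultured cells passed the rule of size, and limma called 1 in place of 0 against cultured cells. Where both arrays had to be well above background, the median of cultured cells was 1.84 in place of 1.33, 3 genes were 2-fold higher in HAK-1B TECs and 1 lower in cultured cells. With both flags present the rule of size called 5 in Hepa1-6 TECs and 1 in cultured cells, and with no filter 1 in cultured cells and 1 gene was 2-fold lower in KYN-2 TECs. With no Z-score 18, 37, 44 and 35 were called higher in the order HAK-1B, Hepa1-6, KYN-2 and cultured cells, and 3, 4 and 8 lower in HAK-1B and Hepa1-6 TECs and cultured cells. Leaving out a TEC array gave 5 to 24 genes 2-fold higher in the rest, with 24 without HAK-1B, and a median of 0.77 to 1.25 over the mean of the TECs (0.96 with all 3). The cause was not tested.

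No paired analysis was possible because a condition had a lone array, and slide as a block was not run, as each slide held 1 group of arrays. Dim genes on LSEC give bounds and not folds.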
